A study of Oryzias latipes with 10 samples.

Results

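Messenger RNA for 5 proteins that the liver secretes into blood plasma was followed in the medaka, Oryzias latipes, a small freshwater fish. The genes are hpx (NCBI Gene 100049270, listed with the synonym wap65), c9 (101156511), c4b (100049261), lcn2 (101158869) and rbp4 (101157573). They were picked as a set of plasma protein genes by their symbols and make up 5 of the 25795 genes in the deposited table. All 5 passed the filter on low values.

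The study compared wild-type medaka (WT) with medaka carrying a knockout of phod1, a gene that the labels also write as pd1 (KO). Every fish of both genotypes was kept under long days and its liver was collected at noon. Each genotype has 5 libraries, numbered WT1 to WT5 for wild-type and KO1 to KO5 for knockout, read with Lasy-Seq, in which many samples are pooled early and sequenced from the 3' end of the transcript. The labels state no strain, sex, age, batch or knockout line, and they do not say how animals map to libraries, so the p-values speak of the spread between these libraries, which may be technical. No gene of the gene table bears the name phod1 or pd1, and the knockout could therefore not be checked in the RNA.

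Hemopexin, the product of hpx, binds free heme in plasma and brings it back to liver cells, which limits oxidative damage when red cells break down. In fish the same protein family is known as Wap65, for warm-temperature acclimation. Complement component C9 polymerises into the pore of the membrane attack complex, and c4b is named as a gene for component C4, from which convertases of the classical and lectin routes are built. Lipocalin 2 is known in mammals for capturing the siderophores with which bacteria take up iron. Rbp4 carries retinol from the liver to other tissues. Hemopexin, many complement components and lipocalin 2 are acute-phase proteins in mammals, whose production by the liver rises in inflammation. Vitellogenins and choriogenins, the yolk and egg envelope proteins, are made by the liver of a female fish under oestrogen.

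Sequencing depth ran from 5422342 to 9803543 reads in the WT libraries and from 4542721 to 10112313 in the KO libraries, and 1 read was worth 0.0989 to 0.220 RPM (reads per 1000000 reads). The lowest number of reads for any of the 5 genes in any library was 1726, at which the counting error is 2.41%, so the spread between libraries is far wider than counting error. Egg protein RNA, summed over vit-6, ol-vit1 and 1-sf, set libraries apart within each genotype. It took 10.4, 13.3, 2.77, 12.4 and 14.0% of the reads of WT1 to WT5, and 0.593, 6.95, 0.571, 0.428 and 0.479% of those of KO1 to KO5. WT3 was thus far below the other WT libraries and KO2 far above the other KO libraries. Genotype accounted for 65.6% of the variance of log2 egg protein RNA, so a difference between genotypes and a difference in egg protein RNA cannot be fully told apart in these samples. For the 5 genes and for other genes named with a difference, calls that change when WT3, KO2 or KO1 is left out are given both ways.

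Among the 5 genes, hpx rose in the knockout and the other 4 did not pass the test. Its level was 5541, 4118, 8746, 4003 and 3389 RPM in WT1 to WT5, and 10855, 10125, 12227, 13967 and 13224 RPM in KO1 to KO5. Every KO library lay above every WT library, with WT3 the highest of the WT livers and KO2 and KO1 the lowest of the KO livers. The mean was 5159 ± 2155 RPM in WT and 12080 ± 1598 RPM in KO (SD, n = 5 each), a ratio of means of 2.34. On the log2(RPM + 1) scale the difference was 1.30 ± 0.24 (SE), with a limma adjusted p of 0.00454 over 14984 genes. Of all genes tested, 1.17% were called higher in KO, 1.68% were called lower, and 1.03% had every KO library above every WT library. In a liver sampled whole, fewer cells of a type and less RNA per cell cannot be told apart.

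In the knockout livers hpx was among the most abundant messages. It took 0.339 to 0.875% of the reads in WT and 1.01 to 1.4% in KO, and ranked 14 to 22 among all genes in WT and 9 to 13 in KO. Leaving out each library in turn kept the difference between 1.17 and 1.52 with limma adjusted p up to 0.0224. The call was lost when all genes above 0 in any library were tested (limma adjusted p = 0.0679), and with egg protein RNA as a covariate the difference was 0.63 ± 0.32 (limma adjusted p = 0.674).

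**Figure D1:**
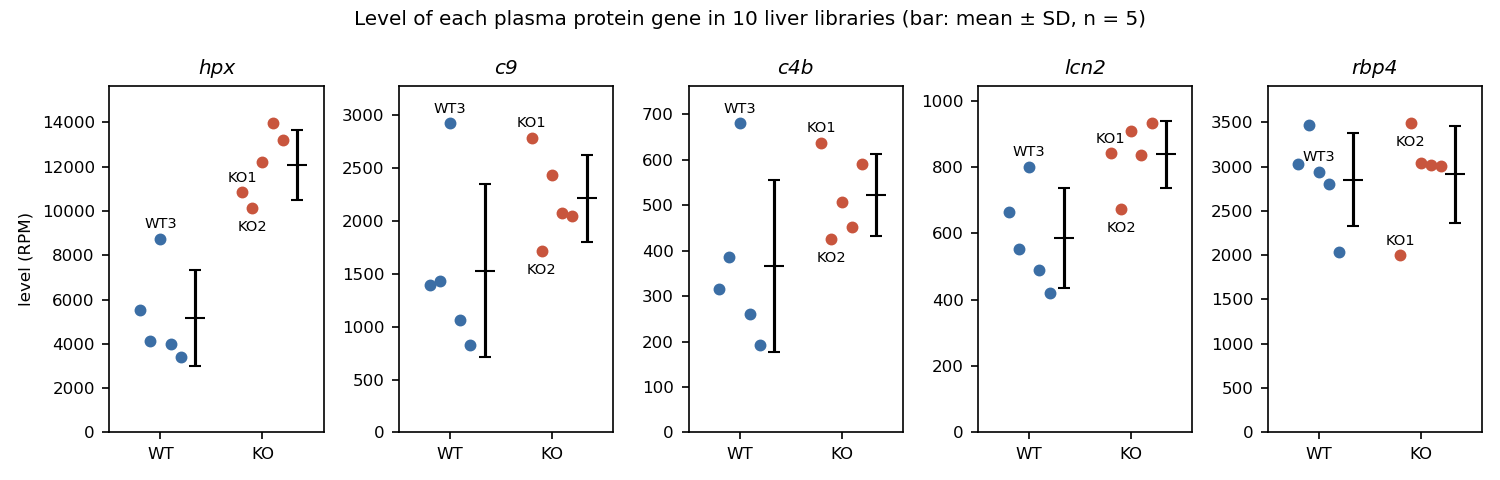
Level in RPM (vertical axis, from 0) of hpx, c9, c4b, lcn2 and rbp4 in each WT (blue) and KO (red) library, with the mean and SD of 5 libraries beside the points. The hpx points of the 2 genotypes do not overlap; in c9 and c4b WT3 stands as the highest library of all, and rbp4 is lowest in KO1.

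Another gene of the hemopexin family, wap65-like, is listed with the synonym Hpx. It had 728.5, 782.6, 1390, 624.9 and 689.8 RPM in WT1 to WT5 and 1481, 818.2, 1301, 1566 and 1665 RPM in KO1 to KO5. WT3 lay among the KO values and KO2 close to the remaining WT values, so the genotypes overlapped. The difference was 0.72 ± 0.23 and did not pass (limma adjusted p = 0.110), while it passed without WT3 (0.91, limma adjusted p = 0.00647) and without KO2 (0.89, limma adjusted p = 0.0314). How reads of the 2 hemopexin genes were shared out is not stated in the sources used here, and what part of either level could belong to the other was not tested.

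Of 24 tested genes for heme and iron handling, 2 rose and 0 fell, against 1.17 and 1.68% of all genes. The list was chosen with earlier results of these data known, and hpx is on it. The other gene that rose was LOC100144362, listed with the synonym tf, for transferrin, the plasma carrier of iron. It stood at 11802 to 44301 RPM in WT, highest in WT3, and at 44286 to 71685 RPM in KO, so that the ranges overlapped slightly. Its difference was 1.48 ± 0.30 (limma adjusted p = 0.00884). The call was lost without the filter (limma adjusted p = 0.171), under robust variance estimates (limma adjusted p = 0.0627) and with the egg protein covariate, where the difference was 0.65 (limma adjusted p = 0.754). The alas1 gene, for the rate-limiting enzyme of heme synthesis, differed by -0.06 ± 0.23 (limma adjusted p = 0.927). The median difference of the 24 genes was -0.11, beside -0.19 for all genes tested.

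Both complement genes were higher on average in KO, with ranges that overlapped. For c9 the level was 1394, 1436, 2925, 1065 and 827 RPM in WT1 to WT5, and 2788, 1714, 2434, 2077 and 2049 RPM in KO1 to KO5. WT3 exceeded every KO library, and each of the other WT libraries lay below every KO library. The means were 1529 ± 819 and 2212 ± 410 RPM, and the difference of 0.65 ± 0.26 did not pass (limma adjusted p = 0.214).

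For c4b the level was 314.7, 387.0, 680.5, 260.7 and 192.5 RPM in WT1 to WT5, and 637.5, 426.0, 508.0, 451.8 and 590.3 RPM in KO1 to KO5. As with c9, WT3 was the highest of all 10 libraries and the other WT libraries lay below the KO range. The means were 367 ± 189 and 523 ± 89.9 RPM, with a difference of 0.63 ± 0.26 (limma adjusted p = 0.225).

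A single WT library decided both calls. Without WT3 the difference was 0.92 for c9 (limma adjusted p = 0.00589) and 0.88 for c4b (limma adjusted p = 0.00976). With lcn2 and hpx this made 4 of the 5 genes higher in KO without WT3, when 2.44% of all tested genes were called higher. Leaving out KO1 along with WT3, after the data had been seen, also left 4 of 5 called, at differences of 0.83 for c9 and 0.81 for c4b, against 2.56% of all genes. Leaving out WT3 and KO2 together gave the same count of 4, at 1.01 for c9 and 0.95 for c4b, against 2.83% of all genes. WT3 was the highest WT library for each of these 4 genes, so leaving it out raises their differences. It was also the lowest WT library in egg protein RNA, so without it genotype and egg protein RNA run closer together. The counts of 4 are thus no test of the set. The same limit applies to the list counts without WT3 given below.

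Of 14 tested complement genes on the fixed list, 0 rose and 0 fell in limma with all 10 libraries, and 0 were called higher or lower by TMM-scaled limma or by edgeR. At an unadjusted limma p under 0.05 there were 4, a count that cannot be judged without the share of all genes at that cut-off, which is not given. The median difference of the 14 genes was 0.43, and 11 of 14 were above 0 in RPM as deposited, against 32.7% of all tested genes. Without WT3, 5 of 14 were called higher, against 2.44% of all genes, and without WT3 and KO1 4 of 14, against 2.56%. The component C5 gene c5, whose product starts assembly of the attack complex, had 740.6, 1064, 2756, 656.7 and 757.3 RPM in WT1 to WT5 and 2510, 974.1, 1666, 1224 and 1070 RPM in KO1 to KO5. WT3 and KO1 stood above the rest in both genotypes, and the difference was 0.46 ± 0.33 (limma adjusted p = 0.516). Without WT3 it was 0.82 and passed (limma adjusted p = 0.0470), and without WT3 and KO1 the limma adjusted p was 0.0901.

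The genes c3-1, c3-2 and bf/c2, for component C3 and factor B, were named after their values were seen. The central component gene c3-1 was at 10424 RPM in WT3 and 2204 to 3123 RPM in the other WT libraries, and at 9298 RPM in KO1 and 4117 to 6005 RPM in the other KO libraries. The bf/c2 gene, listed with the synonym CFB for factor B of the alternative route, was at 899 RPM in WT3 and 1352 RPM in KO1, with 209.8 to 359.5 RPM in the other WT and 464.7 to 602.0 RPM in the other KO libraries. In each genotype 1 library thus stood well above the other 4. The genotype difference was 0.74 ± 0.34 for c3-1 (limma adjusted p = 0.28), 0.86 ± 0.33 for bf/c2 (limma adjusted p = 0.185) and 0.21 ± 0.18 for the other C3 gene c3-2 (limma adjusted p = 0.609). Without WT3 c3-1 passed at 1.14 (limma adjusted p = 0.00207) and bf/c2 at 1.19 (limma adjusted p = 0.00577). Both also passed without WT3 and KO1, c3-1 at 0.97 (limma adjusted p = 0.00262) and bf/c2 at 0.93 (limma adjusted p = 0.00387).

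The same pair of libraries led most complement genes. In 8 of the 14, namely c9, c4b, c5, c8a, c8b, bf/c2, cfi and cfp, the highest WT value was in WT3 and the highest KO value in KO1, a pattern found in 3.06% of all tested genes. This pattern was noticed in the values and has no test. The hpx gene had its highest KO value in KO4 and was lower in KO1 than in any KO library but KO2. It thus did not share the KO1 peak of these complement genes. Its highest WT value was in WT3 and its lowest KO value in KO2, as for c9, c4b, c5, c8b and bf/c2. That arrangement held in 8 of the 14 complement genes, without the share of all genes to judge it by. Of the 4 tested neutrophil markers, lyz and coll also had their highest WT and KO values in WT3 and KO1. So did 1 of 24 heme and iron genes (LOC100144362), 1 of 14 acute-phase genes (socs3), 1 of 18 other plasma protein genes (pros1) and 1 of 8 endothelial markers (flt4). The lysozyme gene lyz was at 741.8, 758.6, 1756, 595.9 and 412.2 RPM in WT1 to WT5 and 1832, 818.7, 835.3, 1002 and 1366 RPM in KO1 to KO5. The collagenase gene coll, listed with the synonym MMP13, was at 438 RPM in WT3 and 461 RPM in KO1, against 4.18 to 8.75 RPM in the other WT and 12.3 to 84.6 RPM in the other KO libraries. Neither differed between genotypes past the threshold, with 0.56 for lyz (limma adjusted p = 0.374) and 1.71 for coll (limma adjusted p = 0.406), while without WT3 both passed, at 0.87 (limma adjusted p = 0.0338) and 2.89 (limma adjusted p = 0.00989). Without WT3 and KO1 lyz did not pass (0.69, limma adjusted p = 0.0735), while coll did (2.12, limma adjusted p = 0.00509). The marker ncf1, for a subunit of the phagocyte oxidase, did not share the pattern and was lower on average in KO, at 4.40 ± 2.89 RPM in WT against 1.41 ± 1.48 RPM in KO, without passing (limma adjusted p = 0.259).

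Summed levels of 9 marker lists were set beside these values. The 6 matched neutrophil markers summed to 426 to 2206 RPM in WT, highest in WT3, and to 831 to 2302 RPM in KO, with lyz the largest of them and mmp9 and csf3r under the filter. In WT3 lyz was at 1756 RPM and coll at 438 RPM, and in KO1 at 1832 and 461 RPM. The sums in these libraries thus rest mostly on those 2 genes. Macrophage markers summed to 3.78 to 24.5 RPM in WT and 4.84 to 17.2 RPM in KO, and lymphocyte markers to 13.5 to 26.6 and 19.3 to 34.2 RPM. Hepatocyte markers, the check on the labelled tissue, were abundant at 1511 to 4492 RPM in WT and 3273 to 5199 RPM in KO. Endothelial, stellate, bile duct, red cell and pancreas markers summed to at most 231 RPM, and in 0 of the 9 lists was a matched marker at 0 in all libraries. None of the tested markers of the 9 lists passed limma with 10 libraries. At an unadjusted limma p under 0.05 there were 2 for hepatocytes and 1 each for neutrophils, endothelium and pancreas, without the share of all genes to judge them by. By edgeR 0 were called, and by TMM-scaled limma 1 hepatocyte marker was called higher, against 2.09% of all genes. Without WT3 2 of 5 hepatocyte and 2 of 4 neutrophil markers were called higher, against 2.44% of all genes. The hepatocyte markers were fgb, which is also on the acute-phase list, and pah. The neutrophil markers were lyz and coll, of which only coll passed without WT3 and KO1. The other 2 tested neutrophil markers had differences below 0 with all 10 libraries. The part of other cell types in the complement values was not tested.

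The lipocalin gene lcn2 was higher on average in KO, with 1 WT library inside the KO range. Its level was 666.1, 552.8, 801.9, 490.0 and 419.4 RPM in WT1 to WT5, and 842.7, 673.6, 909.3, 835.8 and 932.8 RPM in KO1 to KO5. WT3 lay above KO2 and below the other KO libraries, and the remaining WT libraries lay below the KO range. The means were 586 ± 151 and 839 ± 101 RPM, and the difference was 0.55 ± 0.19 (limma adjusted p = 0.14). Without WT3 it was 0.67 (limma adjusted p = 0.0240), and with weights for each library it was 0.61 (limma adjusted p = 0.0464). On recovered reads DESeq2 called lcn2 higher, while edgeR did not.

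On the list of acute-phase proteins and their inducers, 1 of 14 tested genes rose, hpx itself, and 0 fell, against 1.17 and 1.68% of all genes. The list's median difference was 0.55, beside -0.19 for all genes. The fibrinogen genes fgb and fgg, whose products form the clot, differed by 0.92 ± 0.25 (limma adjusted p = 0.0579) and 0.76 ± 0.22 (limma adjusted p = 0.0664), and both passed without WT3, at 1.18 (limma adjusted p = 0.000771) and 0.94 (limma adjusted p = 0.0028). The fgb difference also passed without KO2 (1.02, limma adjusted p = 0.0489). Under TMM scaling 4 of the 14 were called higher against 2.09% of all genes, without WT3 6 of 14 against 2.44%, and in edgeR 1 of 14 against 0.874% of all genes.

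The retinol carrier gene rbp4 showed no difference that could be detected. Its level was 3027, 3468, 2940, 2799 and 2030 RPM in WT1 to WT5, and 1999, 3490, 3034, 3020 and 3009 RPM in KO1 to KO5. The genotypes covered nearly the same range, with the lowest values in WT5 and KO1. The means were 2853 ± 523 and 2910 ± 548 RPM, and the difference was 0.03 ± 0.20 (limma adjusted p = 0.964). Its sign turned to -0.11 when the RPM were rescaled without the egg protein genes. Of 7 tested genes for lipocalins and retinoid transport, 0 rose and 0 fell in limma, TMM-scaled limma or edgeR, with a median difference of 0.03. At an unadjusted limma p under 0.05 there was 1, again without the share of all genes to judge it by. Without WT3 1 of the 7 was called higher, which was lcn2, against 2.44% of all genes.

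Among 18 other plasma proteins that the liver makes, 3 rose and 0 fell, against 1.17 and 1.68% of all genes. In 17 of the 18 the difference was above 0, as in 32.7% of all genes, and the median was 0.38. The largest of the 3 that rose was serpinf2, for the inhibitor of plasmin, at 0.98 ± 0.19 (limma adjusted p = 0.00849). Its call was lost with the egg protein covariate (0.64, limma adjusted p = 0.659). The gene igfals, whose product holds insulin-like growth factors in the circulation, differed by 0.72 ± 0.18 (limma adjusted p = 0.0336). The gene habp2, for a protease that binds hyaluronan, differed by 0.74 ± 0.19 (limma adjusted p = 0.0420). The calls of igfals and habp2 were each lost in 8 of 10 fits without a single library, with no filter, under quantile scaling, after rescaling without the egg protein genes, with the egg protein covariate and in edgeR. Under TMM scaling 6 of the 18 were called higher, against 2.09% of all genes, and without WT3 7 of 18, against 2.44%.

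**Figure D2:**
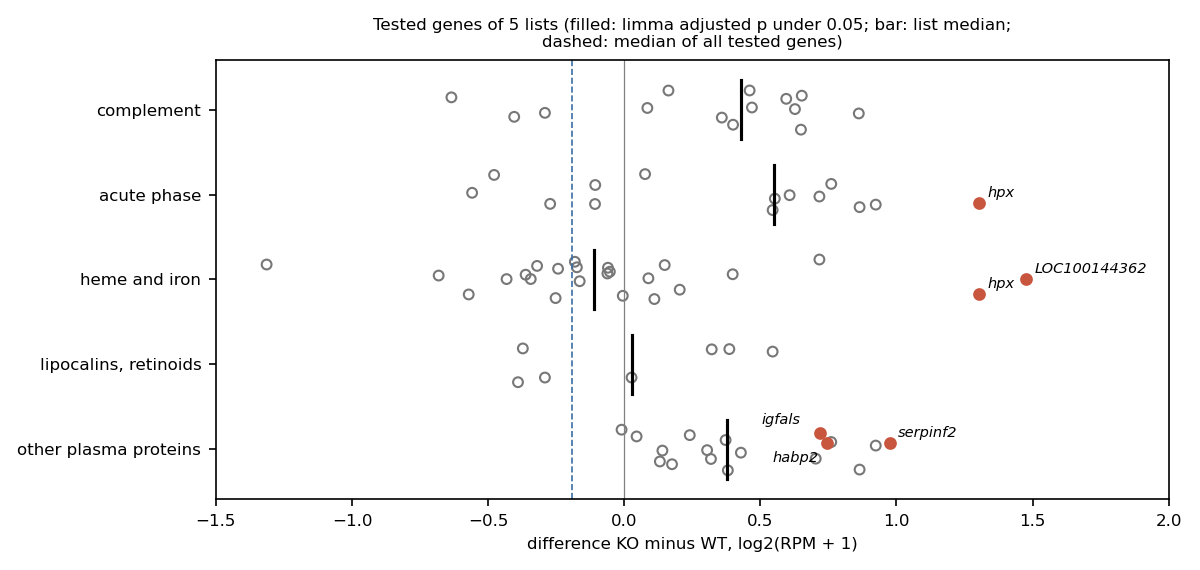
Difference between KO and WT on the log2(RPM + 1) scale (horizontal axis) for each tested gene of 5 lists; filled points passed limma, the bar is the list's median and the dashed line the median of all tested genes, at -0.19. The complement list has a median of 0.43 with no filled point, and in the heme and iron list only hpx and LOC100144362 are filled; some genes stand in more than 1 list.

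The 5 genes were also compared with each other inside each library, where scaling has no part. The hpx level divided by that of lcn2 was 8.32, 7.45, 10.9, 8.17 and 8.08 over WT1 to WT5 and 12.9, 15.0, 13.4, 16.7 and 14.2 over KO1 to KO5, which gives a change in a ratio of RPM and not in amounts per gene length. All KO ratios lay above all WT ratios, so hpx differed more between genotypes than lcn2 did in these libraries. The log2 ratio was higher in KO by 0.76, with an exact two-sided permutation p of 0.00794, the smallest that 5 against 5 libraries allow. Against c9, c4b and rbp4 the log2 ratio of hpx was higher in KO by 0.65, 0.68 and 1.28, with exact permutation p of 0.0238, 0.0238 and 0.0159. After Benjamini-Hochberg adjustment over the 10 pairs, the exact permutation p of all 4 pairs with hpx was 0.0595, so none passed. With so few libraries a single pair at the smallest possible p cannot pass this adjustment alone. Failing it thus partly reflects the number of libraries. The ratio of c9 to c4b differed by 0.03 (exact permutation p = 0.778), and that of lcn2 to rbp4 by 0.52 (exact permutation p = 0.127 after adjustment).

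Within genotypes, c9 and c4b rose and fell together from library to library. Deviations from the genotype means over the 10 libraries had Pearson r = 0.96 and Spearman rho = 0.90, with exact permutation p of 0.006 and 0.037 after adjustment over 10 pairs, and r = 0.80 without WT3 and WT5, the libraries farthest from the median. For hpx and lcn2 r was 0.92 and rho 0.87, with adjusted exact permutation p of 0.006 and 0.046, and r = 0.79 without the 2 farthest libraries. The pairs of lcn2 with c9 and with c4b also passed by Pearson, at r = 0.88 and 0.86 (adjusted exact permutation p = 0.017 and 0.028), with r = 0.63 and 0.53 without WT3 and WT5, but not by rank (rho = 0.72 for both, adjusted exact permutation p = 0.151). The relation of hpx to c9 and to c4b rested on those libraries, since r fell from 0.84 to 0.26 and from 0.80 to 0.09 without them. The gene rbp4 had r between 0.13 and 0.30 with the other 4, and none passed (adjusted exact permutation p from 0.62 to 0.72).

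A search over 3613 other genes with a symbol and a mean of at least 10 RPM named those whose deviations from the genotype means were most like each member's, over 10 libraries and as a description without a test. For c9 these were c8b (r = 0.99), c4b (0.96) and c3-1 (0.95), and for c4b they were c8b (0.98), c9 (0.96) and shbg (0.96). The nearest genes to both complement members were thus mostly complement genes, with c8b a part of the membrane attack complex. WT3 held the highest WT value of c9, c4b, c8b, c3-1 and shbg. Except for c9 with c4b, r without WT3 is not given, so how far these values rest on that library was not tested. For hpx they were pfkl (0.97), sord (0.95) and cdh2 (0.95), for lcn2 scrib (0.95), pebp1 (0.95) and serpinc1 (0.94), and for rbp4 tmem131l (0.93), vti1a (0.92) and vma21 (0.91).

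Egg protein RNA ran opposite to hpx inside each genotype. In order of rising egg protein RNA the KO libraries were KO4, KO5, KO3, KO1 and KO2, and their hpx levels fell at every step from 13967 to 10125 RPM. KO4, KO5, KO3 and KO1 lay between 0.428 and 0.593% of reads, so their order rests on small differences in egg protein RNA. In WT the order was WT3, WT1, WT4, WT2 and WT5, and hpx fell from 8746 to 3389 RPM with 1 exchange, between the close values of WT4 and WT2. The rank correlation within genotype was -0.95 (WT -0.90, KO -1.0), with an exact permutation p of 0.00125 and 0.00625 after adjustment over the 5 genes. Pearson r was -0.67 (exact permutation p = 0.000694 after adjustment), and the rank correlation was also -0.95 when RPM were rescaled without the egg protein genes. These permutation tests of the 5 genes were added after the data had been seen. The slope of hpx in the fit across all genes, given below, did not pass (limma adjusted p = 0.384). Without WT3 and KO2 Pearson r was -0.74, with deviations still taken from the genotype means of all 5 libraries. The remaining WT libraries all lay above their mean in egg protein RNA and the remaining KO libraries all below theirs. This value therefore partly reflects the split by genotype and is no check inside each genotype. Of all tested genes, 0.494% had a rank correlation within genotype of -0.9 or below, and 0.3% after rescaling.

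Of the other 4 genes none passed by rank, although the Pearson r of lcn2 was as strong as that of hpx, and the difference between the 2 was not tested. For lcn2 Pearson r was -0.73 and the rank correlation was -0.65, with adjusted exact permutation p of 0.0113 and 0.190. Its Pearson r without WT3 and KO2, -0.59, has the same limit as that of hpx. For c9 and c4b Pearson r was -0.63 and -0.58 (adjusted exact permutation p = 0.0274 for both), but the rank correlation was -0.40 for both and did not pass (adjusted exact permutation p = 0.389). In WT alone the rank correlation of lcn2 was -0.90, the same as for hpx, and that of c9 and c4b was -0.70. The contrast with hpx thus lay mostly in KO, at -0.40 for lcn2 and -0.10 for c9 and c4b. There the order of KO4, KO5, KO3 and KO1 rests on small differences in egg protein RNA. The relation of rbp4 was 0.22 by Pearson and 0.00 by rank (adjusted exact permutation p = 0.465 and 1.0).

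In the fit across all genes, with a slope on log2 egg protein RNA beside genotype, none of the 5 passed. Of all genes, 0.0935% passed limma with a positive slope and 0.0334% with a negative slope. At an unadjusted p under 0.05 there were 1499 genes. The slope was -0.20 ± 0.08 log2 units per log2 unit of egg protein RNA for hpx (limma adjusted p = 0.384), -0.24 ± 0.09 for c9, -0.21 ± 0.09 for c4b, -0.15 ± 0.06 for lcn2 and 0.05 ± 0.07 for rbp4. Some other named genes had steeper slopes than hpx, among them wap65-like at -0.29 ± 0.06 (limma adjusted p = 0.0735). The slope was -0.33 ± 0.11 for c3-1 and -0.25 ± 0.08 for fgb (limma adjusted p = 0.311 for both), so these did not pass either. Single libraries weighed on the slopes of all 5 genes. Without KO2 the slope was -0.52 for hpx (limma adjusted p = 0.0455), -0.58 for c9, -0.55 for c4b, -0.30 for lcn2 and -0.08 for rbp4, and without WT3 it was -0.10, -0.11, -0.09, -0.11 and 0.08. Taking out WT3 and KO2 together, which leaves 8 libraries with little spread in egg protein RNA inside each genotype, gave slopes of -1.02 for hpx, 0.03 for c9, 0.02 for c4b, -0.52 for lcn2 and -0.80 for rbp4, none of which passed.

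**Figure D3:**
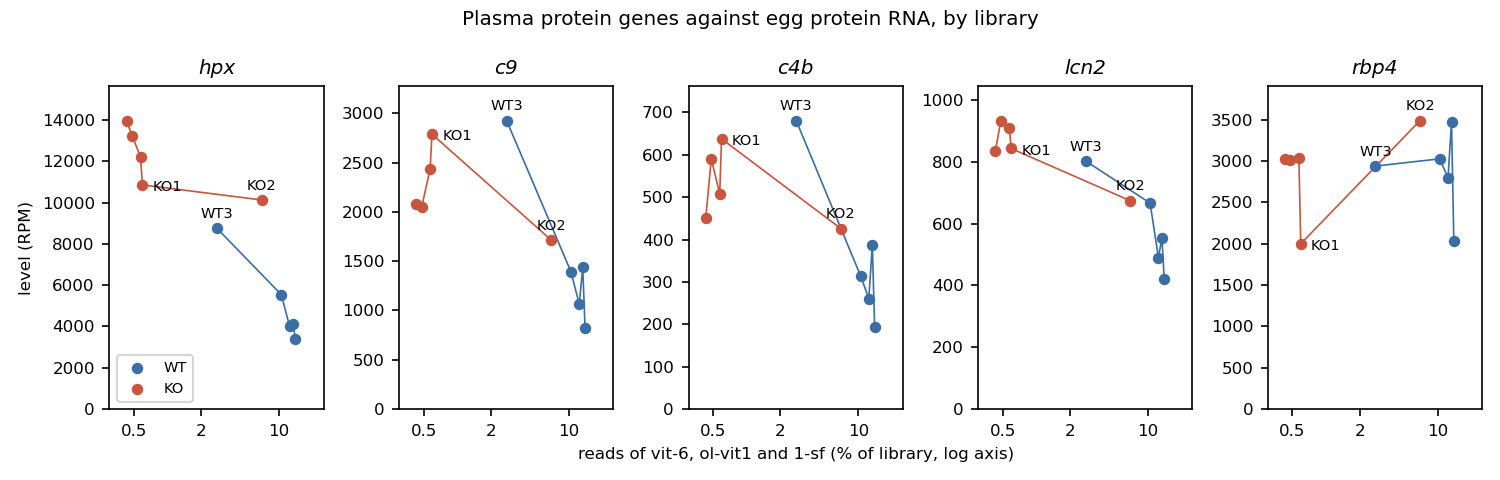
Level in RPM (vertical axis, from 0) of each gene against the share of reads from vit-6, ol-vit1 and 1-sf (horizontal log axis, percent) in WT (blue) and KO (red) libraries; lines join the libraries of a genotype in order of that share. In hpx the KO line falls at every step from 13967 to 10125 RPM, while rbp4 shows no common direction.

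With egg protein RNA as a covariate, the genotype difference was 0.63 ± 0.32 for hpx, -0.16 ± 0.36 for c9, -0.10 ± 0.38 for c4b, 0.02 ± 0.27 for lcn2 and 0.19 ± 0.31 for rbp4 (SE). Each SE was wider than without the covariate, so a value near 0 there is imprecise and does not show that a difference is absent. In either direction 0 of 14981 genes passed limma (0.0% called). In that fit 1146 genes had an unadjusted p under 0.05. Both other scalings given here multiply all genes of a library by the same factor. They shift the differences of the 5 genes nearly alike, so the order among the 5 could not change and was not tested. TMM scaling gave 1.52 for hpx (limma adjusted p = 0.0052), 0.87 for c9, 0.84 for c4b, 0.76 for lcn2 (limma adjusted p = 0.0518) and 0.24 for rbp4, and rescaling without the egg protein genes gave 1.17 (limma adjusted p = 0.00431), 0.52, 0.49, 0.41 and -0.11. The median of all tested genes was -0.19 as deposited, -0.01 under TMM and -0.31 after that rescaling. On recovered reads of 9 libraries, edgeR gave 1.44 for hpx (adjusted p = 0.0244) and called none of the other 4. On the same reads DESeq2 also called lcn2 higher, so the count tests differed for that gene.

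**Figure D4:**
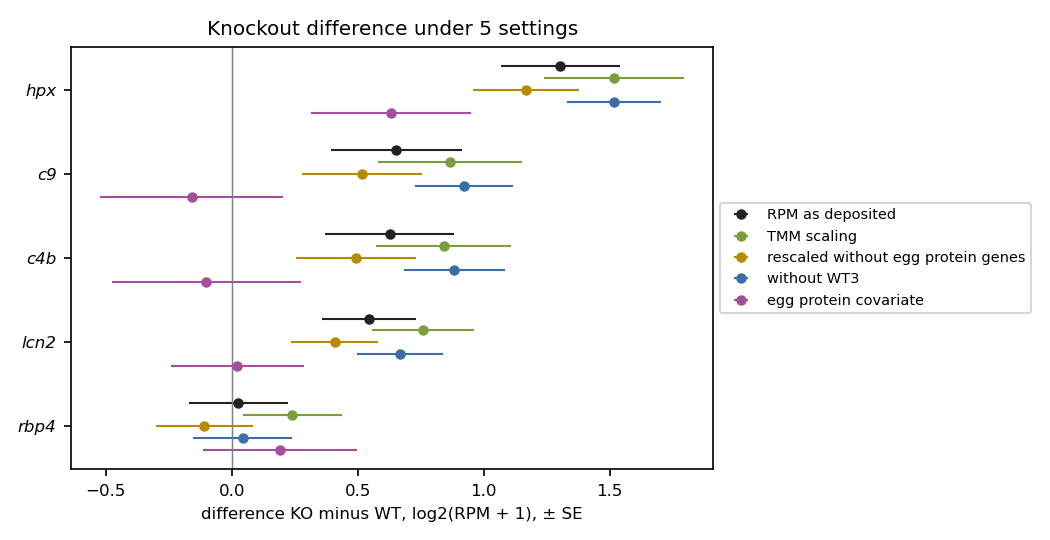
Difference between KO and WT with its SE on the log2(RPM + 1) scale (horizontal axis) for the 5 genes under 5 settings, told apart by colour. The hpx difference lies between 1.17 and 1.52 under the first 4 settings and at 0.63 with egg protein RNA as a covariate, where c9, c4b and lcn2 lie near 0 with wider SEs than as deposited.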

How the data were processed

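The authors deposited 1 table of RPM for liver RNA of 10 libraries, with no division by gene length. Per the submitters' processing notes, BWA 0.7.17-r1188 and Salmon 1.4.0 were used, without their roles, and the genome build is not given in the sources used here. Gene IDs were looked up in RefSeq's gene table (ASM223467v1) for names only, and all 25795 matched. Groups and numbers came from the library titles, and 0 columns went unused. Genes with at least 1 RPM in 5 libraries were tested by limma-trend 3.58.1 (R 4.3.3) on log2(RPM + 1), two-sided, without covariates, with Benjamini-Hochberg adjustment over 14984 genes and a threshold of 0.05. This scale understates changes of low genes. Each RPM value was a whole multiple of the worth of 1 read (100.0% within 1e-06), so reads could be recovered. KO5, whose step is close to a rounded value, was kept out of the count tests, edgeR 4.0.16 and DESeq2 1.42.0, as a precaution. No floor or interval was needed, as every member had at least 1726 reads in each library.

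Ratios, correlations and figures were made in Python 3.11.15, with scipy 1.17.1 for tests, numpy 2.4.6 and pandas 2.3.3 for tables, and matplotlib 3.10.9 for plots. The fits were tested on simulated data. The genes described, the 15 gene lists (9 of markers) and the tests were chosen with earlier results of these data known. Lists were matched by symbol or synonym. Named genes are the 5 members, the egg protein genes, up to 4 called and 2 most abundant genes of each list, and the 3 genes most like each member. A part of that rule that reads gene descriptions could not be applied, as the table holds none, so c3-1, c3-2 and bf/c2 were named after their values were seen. Paralogs may share reads. The result of 1 marker gene is not reported here. Other settings tried were TMM, median-of-ratios and quantile scaling, rescaling without the egg protein genes (egg-free), pseudocounts of 0.5 or 5, filters of none or 5 RPM, robust variances, library weights, a replicate block, an egg protein covariate, leaving out each library, and WT3 with KO2. The slope without WT3 and KO2, the rank and Pearson permutation tests against egg protein RNA, and leaving out WT3 with KO1 were added after the data were seen.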

Additional observations from a re-analysis of the deposited data

Results flagged for a closer look

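Over 46 sets of 5 libraries, 16 held a value set off from the other 4 by more than Dixon's 95% limit allows. That limit is 0.71 of the range, and chance passes it in about 1 in 20 for a single set chosen beforehand. The 16 cannot be judged by that rate, since the sets reuse the same libraries. The sets also hold the egg protein genes beside their own sum, and c3-1 and bf/c2, which were picked with their values known. The values set off fell mostly in the same libraries. In WT3 the egg protein genes were low, with vit-6 at 3643 RPM against 18817 to 22785 RPM in the other WT libraries and ol-vit1 at 12020 against 45018 to 53866 RPM. In KO2 they were high, with vit-6 at 8323 RPM against 384 to 490 RPM in the other KO libraries, ol-vit1 at 34684 RPM, 1-sf at 26471 RPM and their summed share at 6.95% of reads.

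Plasma protein genes were set off upwards in WT3, with c5 at 2756 RPM, c3-1 at 10424 RPM, bf/c2 at 899 RPM, wap65-like at 1390 RPM and LOC100144362 at 44301 RPM. The neutrophil markers lyz, at 1756 RPM, and coll, at 438 RPM, stood out in the same library, while the marker ncf1 was not among the sets examined. In KO1 coll was at 461 RPM and bf/c2 at 1352 RPM, and in KO5 igfals was at 498 RPM against 305 to 361 RPM in the other KO libraries. None of the 5 members was set off in this way in either genotype, but c9 in WT3 fell only just short of the limit, at 2925 RPM against 827 to 1436 RPM in the other WT libraries.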

How the results depend on the processing

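The rise of hpx kept its direction under every alternative, at 1.17 to 1.52 when 1 library was left out, and lost its call with no filter (1.30) and with the egg protein covariate (0.63). The differences of the other members without 1 library ranged from 0.47 to 0.92 for c9, 0.43 to 0.88 for c4b, 0.43 to 0.67 for lcn2 and -0.091 to 0.16 for rbp4. The lcn2 difference passed with library weights (0.61) and DESeq2 (0.71). Without WT3 and KO2 together c9 (1.01), c4b (0.95) and lcn2 (0.74) passed and rbp4 was -0.028, and without WT3 and KO1 c9 (0.83), c4b (0.81) and lcn2 (0.66) passed. Scaling turned rbp4 to -0.018 (quantile) and -0.11 (egg-free). With the covariate c9 was -0.16, c4b -0.10, c5 -0.59, wap65-like -0.26, lyz -0.41, coll -2.18, c3-1 -0.40, c3-2 -0.22 and bf/c2 -0.14. Quantile scaling gave c3-2 -0.087. The alas1 difference turned to 0.15 (TMM), 0.13 (median-of-ratios), 0.051 (quantile), 0.057 (edgeR), 0.045 (DESeq2) and 0.026 (without WT3 and KO1), and lay between -0.24 and 0.10 without 1 library.

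Genes called higher and lower numbered 73 and 103 with no filter, 313 and 132 under TMM, 296 and 143 under median-of-ratios, 322 and 435 with library weights, 0 and 0 with the covariate, 424 and 621 without WT3 and KO2, and 384 and 401 without WT3 and KO1. Lower genes numbered 165 under quantile scaling, 424 after egg-free scaling and 47 in edgeR, and DESeq2 called 310 higher. Without 1 library the counts were 94 to 365 higher and 104 to 479 lower, the most without WT3. Genes that passed with a positive slope on egg protein RNA numbered 22 after egg-free scaling, and those with a negative slope 28 under TMM. Without WT3 and KO2 there were 0 and 2, and the slope was 0.029 for c9, 0.017 for c4b, -1.02 for hpx, -0.52 for lcn2 and -0.80 for rbp4. The rbp4 slope was -0.0057 under TMM. Without 1 library, 12 to 36 genes passed with a positive slope and 2 to 41 with a negative slope. In those fits the slope was -0.52 to -0.10 for hpx, -0.58 to -0.11 for c9, -0.55 to -0.090 for c4b, -0.30 to -0.11 for lcn2 and -0.085 to 0.076 for rbp4.

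Without 1 library the log2 ratio of hpx differed by 0.58 to 0.78 against c9, 0.56 to 0.79 against c4b, 0.70 to 0.85 against lcn2 and 1.14 to 1.47 against rbp4. The adjusted exact permutation p of each was 0.0397 at its lowest. At its highest it was 0.0794 against c9, lcn2 and rbp4 and 0.119 against c4b, so passing depended on the library left out. Here too a single pair at the smallest possible p could not pass alone. The ratio to rbp4 differed by 0.41 to 0.88 for c9, 0.40 to 0.84 for c4b and 0.38 to 0.67 for lcn2. The ratio c9 to c4b lay between -0.020 and 0.096, c9 to lcn2 between 0.023 and 0.25, and c4b to lcn2 between -0.0051 and 0.22. The cause of these changes was not tested.

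The replicate numbers pair nothing the labels name. The values for same-numbered libraries were -0.0813 to 0.000833, with 0 of 5 pairs over 0.1 and 0 WT libraries closest to their own number. Libraries with unlike numbers gave -0.0782 to 0.0920. These correlations serve only to compare pairs and do not describe how alike whole expression profiles are. With the replicate block 145 genes were higher and 190 lower, and hpx kept its call (1.30, limma adjusted p = 0.00934), while igfals (limma adjusted p = 0.0910) and habp2 (limma adjusted p = 0.0901) did not pass. What limits these results is the number of libraries, the position of WT3, and an egg protein difference that runs with genotype, not read depth.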
